A study of Homo sapiens with 6 samples.

Results

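The genes that encode subunits of the oxidative phosphorylation complexes were followed in RNA-seq of UM-SCC1 cells transfected with mimics of miR-204-5p. Members were taken by gene name, as nuclear-encoded NDUF, SDH, UQCR, COX and ATP5 subunit genes together with CYC1 and CYCS, and 86 of the 14959 genes in the table met this rule, 39 of complex I, 4 of complex II, 10 of complex III, 13 of complex IV, 19 of complex V and the gene of the mobile carrier cytochrome c. The rule also takes a few genes that are not subunits, such as the ATP synthase inhibitor ATP5IF1 and the readthrough locus NDUFC2-KCTD14. The term subunit genes covers all 86 here. UM-SCC1 is a long-established line from a squamous carcinoma of the head and neck (HNSCC), and mimics are synthetic RNA duplexes from which the cell takes the strand that acts as the mature miRNA. The compared groups were 3 libraries of UM-SCC1 cells given miR-204-5p mimics (called mimic libraries here) and 3 of UM-SCC1 cells given control mimics (control libraries), with no other agent or genetic change named in the labels. Transfected cells were kept for 48 h, a general time in the methods that is not repeated for these libraries, and no dose is given for them. A single cell line was used, the labels do not say whether the numbered libraries came from separate transfections, and p-values therefore measure the spread between these libraries, which may be technical.

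Oxidative phosphorylation takes place in the inner mitochondrial membrane. Complex I accepts electrons from NADH and complex II from succinate, ubiquinone carries them to complex III, cytochrome c hands them on to complex IV, where oxygen is reduced, and the proton gradient built on the way drives ATP synthesis by complex V. Most subunits are encoded in the nucleus and imported, while the most hydrophobic cores of complexes I, III, IV and V come from mitochondrial DNA. Subunits outside the catalytic core, called accessory subunits, hold the complexes together or regulate them.

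The transfected miRNA is shown because the 3'UTR matches given further on were searched with its seed, bases 2 to 8 from the 5′ end, written in capitals. The sequence is that of RefSeq (GRCh38.p14), where the mature miRNA lies on the minus strand at chr9:70810031-70810052.
hsa-miR-204-5p: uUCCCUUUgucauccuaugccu

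Expression is given as FPKM, the fragments of a gene scaled to the length of its transcript in kilobases and to the mapped fragments of the library, with 1 value per gene and library. Log2 fold changes (log2FC) are differences on the log2(FPKM + 1) scale, mimic minus control libraries, which understates changes of genes with low FPKM, and a gene was called higher or lower where the adjusted p-value of limma (Benjamini-Hochberg over all 14959 genes) was under 0.05. The table holds no read counts, and steps in the low values put the depth at 13.1 to 15.9 M fragments in the mimic libraries and 13.9 to 16.4 M in the control libraries (M, 1e6). Across genes, the Spearman correlation was 0.990 to 0.991 within groups and 0.973 to 0.976 between groups. The squamous identity of the line was visible in its markers, with all 10 squamous epithelial genes looked for present, among them KRT14 at 80.6, 80.8 and 85.9 FPKM in the mimic libraries and 119, 115 and 119.8 FPKM in the control libraries. PTPRC, the pan-leukocyte gene, was at 0.179, 0.546 and 0.153 FPKM in the mimic libraries and 0.1504, 0.1196 and 0.143 FPKM in the control libraries, and all endothelial genes in the table had a mean below 1 FPKM. Other markers were higher, with the monocyte genes CD14 at 11.8 to 16.6 FPKM, CD68 at 8.68 to 11.7 FPKM and LYZ at 3.59 to 4.59 FPKM over the 6 libraries, and the collagen gene COL1A1 at 8.04 to 10.5 FPKM. Of the fibroblast list 5 of 10 genes were in the table, and of the endothelial list 4 of 6. Summed FPKM was 886 to 981 in the mimic and 1013 to 1045 in the control libraries for the squamous list, 9.89 to 11.7 and 8.58 to 9.41 for the fibroblast list, 26.8 to 30.3 and 32.4 to 34.1 for the leukocyte list and 0.706 to 0.852 and 0.615 to 0.701 for the endothelial list. By limma, 3 squamous markers were called higher and 6 lower, 2 fibroblast markers higher, 1 leukocyte marker lower and 1 endothelial marker higher, and their part in the results that follow was not tested.

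More of the 86 subunit genes were higher than lower with miR-204-5p mimics, and most differences were small. Of the 86 genes, 40 passed the limma threshold (46.5%), where 40.8% of all genes in the table did. The calls were unevenly split, with 35 subunit genes higher, 40.7% of them against 23.9% of all genes, and 5 lower, 5.81% against 16.8% of all genes. The median log2FC was 0.16 for the subunit genes and 0.032 for all genes, and the fold change was above 0 for 73 of the 86 genes (84.9%), where 55.9% of all genes were above 0. All 3 mimic libraries lay above all 3 control libraries for 42 subunit genes, against 30.9% of all genes, and below them for 7, against 22.7% of all genes. As 83 of the 86 genes had a mean of at least 1 FPKM, the 11504 genes at that level are a closer comparison. Among those 11504 genes 47.8% were called, 27.7% higher and 20.1% lower. Groups did not overlap for 34.3% of them, higher, and 26.0%, lower. Their median log2FC was 0.041, and 55.3% were above 0. In RNA from whole cultures, a change in the amount of an mRNA per cell and a change in the share of cells that express it cannot be told apart.

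The same shift showed in the summed FPKM, which is dominated by the abundant subunits. The 86 genes together reached 6289, 6038 and 5883 FPKM in the mimic libraries and 5315, 5372 and 5519.9 FPKM in the control libraries, and the groups did not overlap. The ratio of the mean sums was 1.12. As a share of all FPKM, the sum was 2.12% in the mimic libraries and 1.94% in the control libraries. Complex V stood at 1674, 1610.1 and 1493 FPKM against 1318, 1341 and 1387 FPKM, a ratio of 1.18, and complex I at 1928, 1869.8 and 1829.7 FPKM against 1653, 1694 and 1737 FPKM, a ratio of 1.11. The ratios of complexes II, III and IV were 1.08, 1.08 and 1.10, without overlap between groups in any of them. Replicate 1 of the mimic libraries had the highest sum in every complex, and it also had the highest sum over the whole table, 291864 FPKM against 283454 to 284969 in the other mimic libraries and 276822 to 280056 in the control libraries, and the lowest inferred depth.

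**Figure D1:**
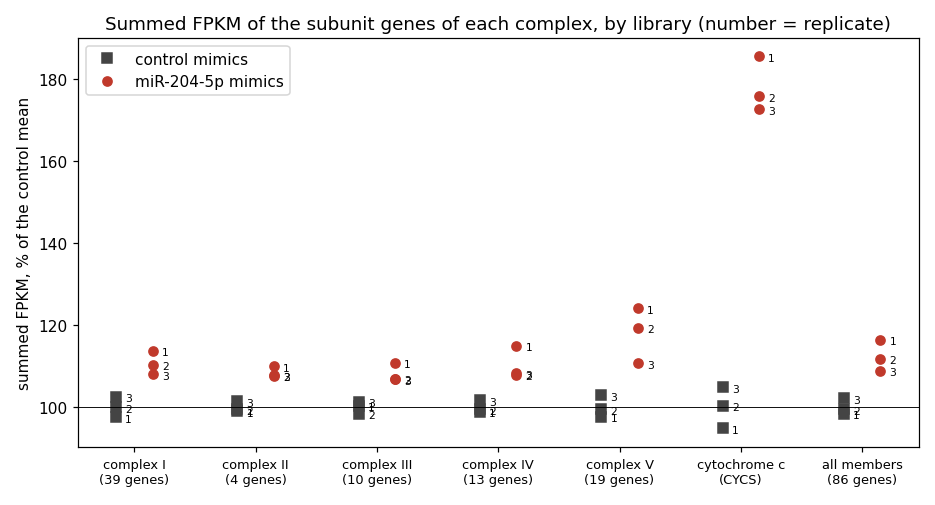
Summed FPKM of the subunit genes of complexes I to V, of CYCS and of all 86 genes in each library, as a percentage (vertical axis) of the mean of the 3 control libraries. Circles are the mimic libraries and squares the control libraries, numbered by replicate; every circle lies above every square of its complex, from a ratio of means of 1.08 for complex III to 1.78 for cytochrome c.

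Because the whole table sums higher in the mimic libraries, the calls were also counted after scaling. With the libraries scaled to equal sums, 28 subunit genes were higher and 7 lower, with equal medians 26 and 7, and after quantile normalization 29 and 7, while 20.6%, 20.8% and 20.3% of all genes were higher and 19.3%, 19.7% and 20.2% lower. The median log2FC of the subunit genes was then 0.12, 0.12 and 0.13, against 0.0088, 0.0083 and −7.0e-05 for all genes. Across these 3 scalings, the pseudocount, a filter at a mean of 1 FPKM, a fit with the replicate number as a block and the removal of each library, 12 alternatives in all, 20 of the 35 genes called higher and 4 of the 5 called lower kept the call every time. Where a call was lost, the settings are named with the gene, apart from the block, which counts among the 12 and is described with the processing alternatives.

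**Figure D2:**
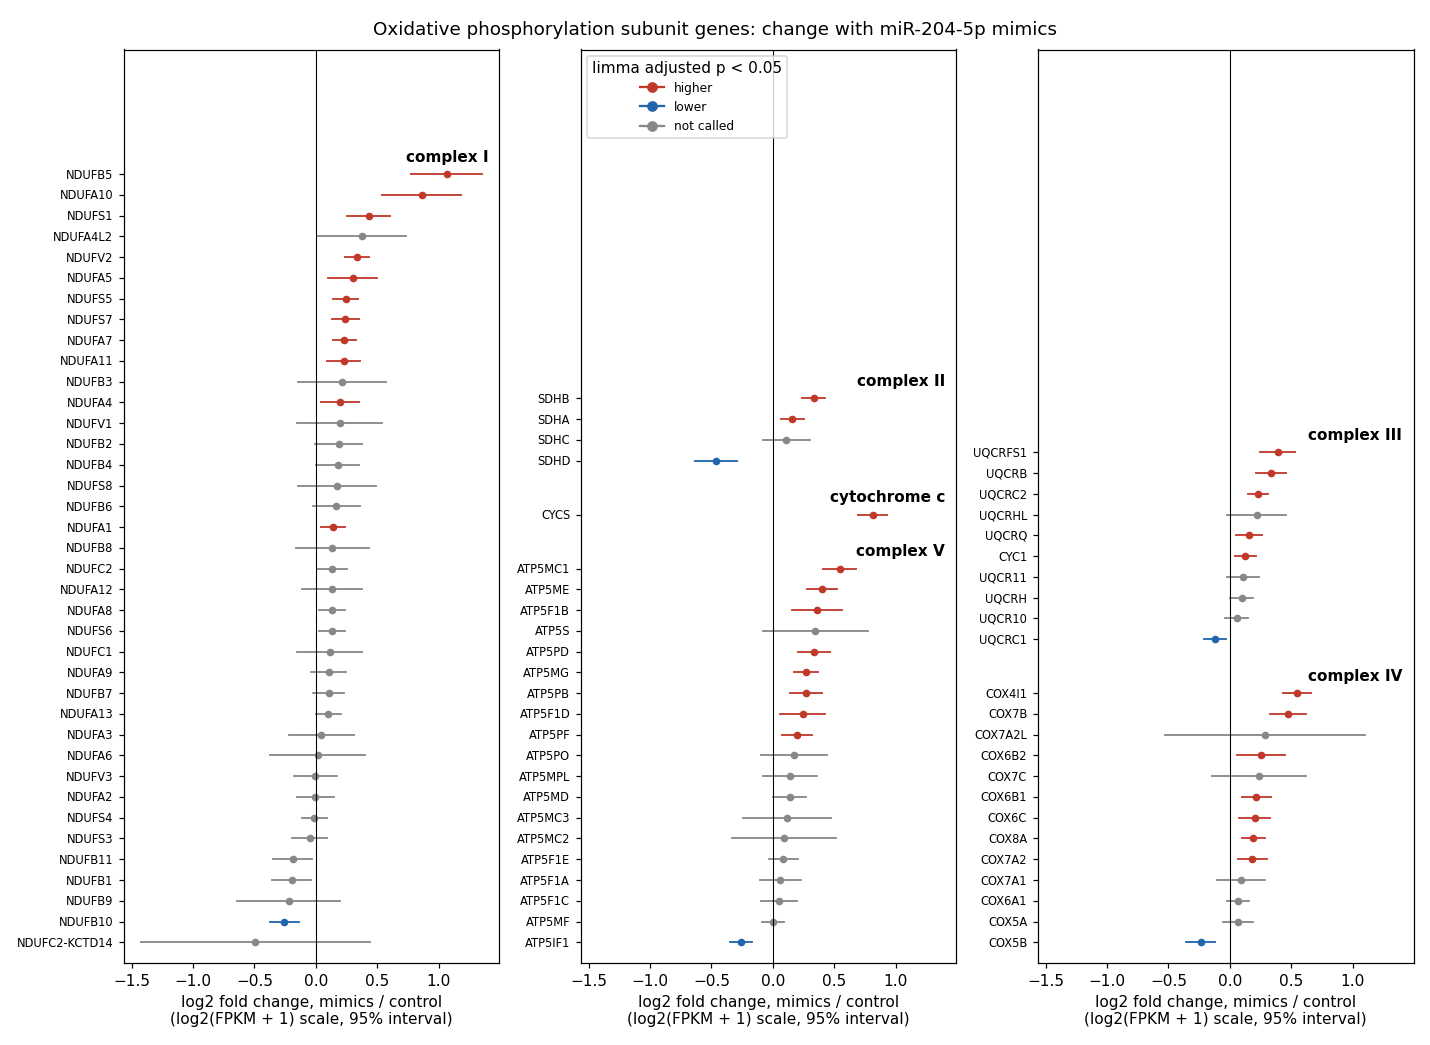
Log2 fold change (points, horizontal axis, log2(FPKM + 1) scale) of 85 of the 86 subunit genes with the 95% confidence interval from limma (lines), mimic against control libraries, n = 3 each. Of those drawn, red marks the 34 genes called higher, blue the 5 called lower and grey the 46 not called. Each complex has genes called both ways, in complex V through the inhibitor ATP5IF1, cytochrome c being the single gene CYCS.

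CYCS encodes cytochrome c, the soluble electron carrier between complexes III and IV, which also triggers caspase activation when it leaves the mitochondrion. CYCS (ENSG00000172115, minus strand, chr7:25120091-25125361 on GRCh38) stood at 54.7, 51.9 and 50.9 FPKM in the mimic libraries and 28.0, 29.6 and 30.9 FPKM in the control libraries. Positions given with a gene here are the span of the transcript that the table lists for it. All mimic libraries were above all control libraries, 52.5 ± 1.98 against 29.5 ± 1.49 FPKM (SD, n = 3). The log2FC of 0.81 (SE 0.05003, limma adjusted p = 0.000110) had the smallest adjusted p of the 86 genes, and the call held in all 12 alternatives.

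In complex I, which passes electrons from NADH to ubiquinone, 12 genes were higher, 1 was lower and 26 were not called, with a median log2FC of 0.13. This is 30.8% higher and 2.56% lower, 33.3% called in all, where 40.8% of all genes were called. The N module, the NADH-oxidising tip of the matrix arm, had 3 of 10 genes higher (30%, against 23.9% of all genes). NDUFS1, the large iron-sulfur subunit of this tip, was at 11.8, 14.0 and 12.6 FPKM in the mimic libraries and 9.496, 8.67 and 9.61 FPKM in the control libraries, a log2FC of 0.43 (SE 0.0729, limma adjusted p = 0.00439). NDUFV2, which carries an iron-sulfur cluster beside the flavin subunit, was at 61.9, 62.8 and 61.0 FPKM in the mimic libraries and 46.6, 50.1 and 50.2 FPKM in the control libraries (log2FC 0.33, limma adjusted p = 0.00126). The accessory gene NDUFA7 was at 62.0, 59.4 and 61.0 FPKM in the mimic libraries and 52.0, 53.3 and 49.8 FPKM in the control libraries (log2FC 0.23, limma adjusted p = 0.00442). These 3 kept their calls in all 12 alternatives, and their groups did not overlap. NDUFV1, the flavin-binding subunit that takes the electrons from NADH, was at 87.8, 118 and 128 FPKM in the mimic libraries and 91.7, 107 and 90.7 FPKM in the control libraries. Its mimic replicate 1 lay below every control library and the other mimic libraries above them, so that the log2FC of 0.19 (95% interval −0.15 to 0.54) was not called with all libraries (limma adjusted p = 0.333) and was 0.35 without that library (limma adjusted p = 0.0275). The other N module genes, NDUFS4, NDUFS6, NDUFA2, NDUFA6, NDUFA12 and NDUFV3, were not called, with log2FC from −0.015 to 0.13, and NDUFA12 was called higher without control replicate 3 (0.24, limma adjusted p = 0.0309).

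In the Q module, ubiquinone is reduced. NDUFS7, which holds the last iron-sulfur cluster before ubiquinone, was at 34.4, 34.5 and 37.5 FPKM in the mimic libraries and 29.1, 30.5 and 30.0 FPKM in the control libraries (log2FC 0.24, limma adjusted p = 0.00731). It was higher in every mimic library than in any control library and in all 12 alternatives. NDUFA5, an accessory subunit of the matrix arm, was at 4.21, 3.54 and 3.63 FPKM in the mimic libraries and 2.69, 3.17 and 2.81 FPKM in the control libraries (log2FC 0.30, limma adjusted p = 0.0276), a call that held in 6 of 12 alternatives and was lost after quantile normalization and without mimic replicates 1 or 3 or control replicates 1 or 3 (limma adjusted p from 0.0509 to 0.0842). The iron-sulfur subunit NDUFS8 was at 77.3, 52.9 and 58.4 FPKM in the mimic libraries and 54.5, 53.8 and 56.8 FPKM in the control libraries. Mimic replicates 1 and 3 stood above every control library and mimic replicate 2 below them, and the gene was not called (log2FC 0.17, 95% interval −0.14 to 0.49, limma adjusted p = 0.347). NDUFS3, another core subunit of the matrix arm, gave −0.051 (limma adjusted p = 0.533).

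Among the 21 other accessory subunits of complex I, 5 were higher (23.8%, against 23.9% of all genes) and 1 lower (4.76%, against 16.8%). In all 28.6% were called, against 40.8% of all genes, and the 2 largest fold changes of all subunit genes are here. NDUFB5, a membrane arm subunit (ENSG00000136521, plus strand, chr3:179604702-179624497), was at 22.9, 16.2 and 21.6 FPKM in the mimic libraries and 8.89, 8.93 and 9.33 FPKM in the control libraries. The control libraries were close together and every mimic library lay above them, with a log2FC of 1.06 (SE 0.121, limma adjusted p = 0.000905). NDUFA10, a membrane arm subunit on the matrix side (ENSG00000130414, minus strand, chr2:239892450-240011660), was at 19.9, 16.8 and 14.4 FPKM in the mimic libraries and 8.01, 8.38 and 10.4 FPKM in the control libraries, a log2FC of 0.86 (SE 0.134, limma adjusted p = 0.00313). Its groups did not overlap, and both calls held in all 12 alternatives. Both genes are, however, listed with a transcript shorter than their longest coding one. NDUFB5 is listed with 1141 bases against 4046, and NDUFA10 with 662 against 4915. If FPKM refers to the listed length, 142 fragments are inferred in the lowest library of NDUFB5 and 74.7 in that of NDUFA10. NDUFS5, an intermembrane space subunit and the complex I gene with the highest mean FPKM (324), was at 358, 360.1 and 337 FPKM in the mimic libraries and 295, 291 and 305 FPKM in the control libraries (log2FC 0.24, limma adjusted p = 0.00477). NDUFA11, a membrane arm subunit, was at 24.1, 21.5 and 22.4 FPKM in the mimic libraries and 19.0, 18.6 and 20.02 FPKM in the control libraries (log2FC 0.22, limma adjusted p = 0.0173), and its call was lost without control replicates 1 or 2 (limma adjusted p from 0.0545 to 0.0591). NDUFA1, another small membrane subunit, was at 87.2, 80.4 and 82.8 FPKM in the mimic libraries and 75.01, 75.2 and 77.3 FPKM in the control libraries (log2FC 0.14, limma adjusted p = 0.0364) and kept the call in 3 of 12 alternatives, a call lost with equal sums, with equal medians, after quantile normalization and without mimic replicates 1 or 3 or control replicates 1, 2 or 3 (limma adjusted p from 0.0602 to 0.141). The call of NDUFS5 was kept in all 12.

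NDUFB10, an intermembrane space subunit of the membrane arm, went the other way. Its values were 46.5, 45.6 and 42.8 FPKM in the mimic libraries and 52.3, 52.6 and 56.8 FPKM in the control libraries, a log2FC of −0.26 (SE 0.0501, limma adjusted p = 0.00755), lower in every alternative. NDUFB1 and NDUFB11, also of the membrane arm, lay below the control libraries without overlap but just missed the threshold with all libraries. NDUFB1 was at 35.4, 30.0 and 31.3 FPKM in the mimic libraries and 35.8, 38.0 and 37.2 FPKM in the control libraries (log2FC −0.20, limma adjusted p = 0.0534) and NDUFB11 at 37.1, 32.1 and 31.7 FPKM in the mimic libraries and 38.2, 39.4 and 37.6 FPKM in the control libraries (log2FC −0.19, limma adjusted p = 0.0591). They were called lower in 5 and 4 of the 12 alternatives, among them the fit without mimic replicate 1 (−0.26 for each, limma adjusted p = 0.00972 and 0.0069). The remaining 13 accessory genes were not called, from −0.22 for NDUFB9, whose control replicate 2 stood apart at 51.8 FPKM from 31.3 and 34.9 in the other control libraries, to 0.21 for NDUFB3. Without mimic replicate 3, NDUFA13, NDUFB6 and NDUFC2 were called higher (log2FC 0.13, 0.25 and 0.18, limma adjusted p = 0.0440, 0.0265 and 0.0142).

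NDUFA4 was named as a complex I subunit and is counted there by its name, but is now placed in complex IV. It was at 37.6, 36.4 and 37.2 FPKM in the mimic libraries and 33.8, 29.1 and 33.9 FPKM in the control libraries, and its log2FC of 0.20 (limma adjusted p = 0.0475) kept the call in 3 of 12 alternatives, a call lost with equal sums, with equal medians, after quantile normalization and without mimic replicates 1, 2 or 3 or control replicates 1 or 2 (limma adjusted p from 0.0554 to 0.116). Its hypoxia-inducible paralogue NDUFA4L2 was scarce, at 1.30, 0.805 and 1.73 FPKM in the mimic libraries and 0.774, 0.830 and 0.605 FPKM in the control libraries. The groups overlapped through mimic replicate 2, and the log2FC of 0.37 (limma adjusted p = 0.0909) became 0.53 without that library (limma adjusted p = 0.0149). The readthrough locus NDUFC2-KCTD14, which the name rule also takes, is listed at 0 in 5 libraries and at 1.79 FPKM in control replicate 3, on the same strand as NDUFC2.

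Complex II, succinate dehydrogenase, joins the tricarboxylic acid cycle to the respiratory chain and has 4 subunits. Of these 2 were higher and 1 lower, 50% and 25% against 23.9% and 16.8% of all genes. SDHA, the flavoprotein that oxidises succinate, was at 133, 128 and 129 FPKM in the mimic libraries and 112, 115 and 121 FPKM in the control libraries (log2FC 0.16, limma adjusted p = 0.0194). Its call held in 7 of 12 alternatives and was lost with equal medians and without mimic replicate 1 or control replicates 1 or 2 (limma adjusted p from 0.0530 to 0.0671). SDHB, the iron-sulfur subunit, was at 58.7, 57.4 and 57.6 FPKM in the mimic libraries and 47.2, 44.1 and 46.3 FPKM in the control libraries (log2FC 0.33, SE 0.0374, limma adjusted p = 0.000888) and held in all 12. SDHC, one of the membrane anchors, was at 13.3, 13.1 and 12.8 FPKM in the mimic libraries and 10.6, 12.467 and 13.3 FPKM in the control libraries, with overlapping groups (log2FC 0.11, 95% interval −0.084 to 0.30, limma adjusted p = 0.329).

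SDHD, the other membrane anchor (ENSG00000204370, plus strand, chr11:112086773-112095794), had the largest fall of the 86 genes that passed the test. It was at 22.5, 24.1 and 22.5 FPKM in the mimic libraries and 34.3, 33.4 and 28.8 FPKM in the control libraries, 23.0 ± 0.920 against 32.2 ± 3.00 FPKM (SD, n = 3). The highest mimic library lay below the lowest control library, and the log2FC was −0.46 (SE 0.0727, limma adjusted p = 0.00321), lower in all 12 alternatives. The 4 subunits of the one enzyme therefore ran from −0.46 to 0.33 on the log2(FPKM + 1) scale, while their sum was 227, 223 and 222 FPKM against 205, 205 and 209.7 FPKM. The span of SDHD overlaps that of TIMM8B on the opposite strand, a mitochondrial import chaperone gene that was higher (log2FC 0.73, limma adjusted p = 0.0317). Whether their exons overlap was not examined. The sources used here do not say whether counting used strand, so any reads of shared exons could not be assigned to one of them.

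In complex III, which moves electrons from ubiquinol to cytochrome c, 5 of 10 genes were higher and 1 lower (60% called, against 40.8% of all genes), with a median log2FC of 0.14. UQCRFS1, the Rieske iron-sulfur protein, was at 24.3, 24.2 and 23.8 FPKM in the mimic libraries and 16.9, 18.0 and 19.7 FPKM in the control libraries (log2FC 0.39, SE 0.0584, limma adjusted p = 0.00269). The mimic libraries were close together and above all control libraries, and the call held in all 12 alternatives. CYC1, the haem-bearing cytochrome c1 and the most abundant complex III mRNA, was at 245, 239 and 247 FPKM in the mimic libraries and 230.2, 220.1 and 220.0 FPKM in the control libraries (log2FC 0.13, limma adjusted p = 0.0300), a call kept in 3 of 12 alternatives and lost with equal sums, with equal medians, after quantile normalization and without mimic replicates 1, 2 or 3 or control replicates 2 or 3 (limma adjusted p from 0.0516 to 0.142). The core proteins parted, as UQCRC2 was at 84.0, 81.1 and 81.9 FPKM in the mimic libraries and 68.6, 70.4 and 71.2 FPKM in the control libraries (log2FC 0.23, limma adjusted p = 0.00233) and UQCRC1 at 94.0, 90.9 and 93.0 FPKM in the mimic libraries and 101, 97.6 and 104 FPKM in the control libraries (log2FC −0.12, limma adjusted p = 0.0371). UQCRC2 was higher in all 12 alternatives, whereas the call of UQCRC1 held in 6 of them and was lost without mimic replicates 1, 2 or 3 or control replicates 1 or 3 (limma adjusted p from 0.0555 to 0.108). The number of complex III genes called, 6 with all libraries, was 3 without mimic replicate 1, mimic replicate 2 or control replicate 3.

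The small complex III subunits all had fold changes above 0. UQCRB, near the ubiquinone site, was at 40.2, 37.3 and 35.5 FPKM in the mimic libraries and 29.5, 29.5 and 30.0 FPKM in the control libraries (log2FC 0.33, limma adjusted p = 0.00290), and UQCRQ, a small accessory subunit, was at 107, 101 and 98.9 FPKM in the mimic libraries and 94.6, 88.9 and 91.7 FPKM in the control libraries (log2FC 0.16, limma adjusted p = 0.0307). UQCRB held in all 12 alternatives, and the call of UQCRQ was lost with equal sums, with equal medians and without mimic replicates 1 or 2 or control replicates 2 or 3 (limma adjusted p from 0.0609 to 0.111). UQCRH, the hinge protein that helps dock cytochrome c, was at 195, 185 and 187 FPKM in the mimic libraries and 173, 175 and 182 FPKM in the control libraries, without overlap, but the log2FC of 0.10 (limma adjusted p = 0.0898) was not called. UQCRHL, an intronless copy of UQCRH with closely similar sequence, was at 2.80, 2.90 and 2.23 FPKM in the mimic libraries and 2.00, 1.95 and 2.44 FPKM in the control libraries (limma adjusted p = 0.135), and fragments may be split between the pair. UQCR10 and UQCR11 were not called, with 0.055 and 0.11, and UQCR11 was called higher without mimic replicate 3 (0.16, limma adjusted p = 0.0419).

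In complex IV, cytochrome c oxidase, 7 of 13 genes were higher and 1 lower, 53.8% and 7.69% against 23.9% and 16.8% of all genes. In all 61.5% were called, against 40.8% of all genes, and the median log2FC of 0.20 was the highest of the 5 complexes. COX4I1, the largest nuclear-encoded subunit and the site of regulation by ATP (ENSG00000131143, plus strand, chr16:85798633-85804992), was at 78.9, 76.9 and 71.7 FPKM in the mimic libraries and 49.7, 52.0 and 52.7 FPKM in the control libraries. The groups were 75.8 ± 3.76 and 51.5 ± 1.58 FPKM (SD, n = 3), a log2FC of 0.55 (SE 0.0477, limma adjusted p = 0.000330). COX4I1 too is listed with a short transcript, of 566 bases, while its longest coding transcript has 1481. COX7B, a small membrane subunit, was at 41.0, 40.4 and 36.5 FPKM in the mimic libraries and 28.6, 26.4 and 29.3 FPKM in the control libraries (log2FC 0.47, SE 0.0609, limma adjusted p = 0.00147). Both held in all 12 alternatives. COX6B1, which faces the intermembrane space and cytochrome c, was at 86.7, 80.1 and 78.4 FPKM in the mimic libraries and 70.8, 67.5 and 72.3 FPKM in the control libraries (log2FC 0.22, limma adjusted p = 0.0148), a call lost without control replicate 2 (limma adjusted p = 0.0514). COX8A, a small membrane subunit with the highest mean of all 86 genes (378 FPKM), was at 414, 389 and 406 FPKM in the mimic libraries and 358, 343 and 358 FPKM in the control libraries (log2FC 0.19, limma adjusted p = 0.0102), a call lost after quantile normalization (limma adjusted p = 0.0660). COX6C, at 54.2, 48.6 and 49.1 FPKM in the mimic libraries and 42.5, 43.7 and 45.4 FPKM in the control libraries (log2FC 0.20, limma adjusted p = 0.0232), and COX7A2, at 59.3, 56.7 and 52.6 FPKM in the mimic libraries and 49.0, 49.5 and 49.8 FPKM in the control libraries (log2FC 0.18, limma adjusted p = 0.0265), are small membrane subunits as well. Their groups did not overlap, and the call of COX6C was lost with equal medians and without control replicates 1 or 2 (limma adjusted p from 0.0611 to 0.0738) and that of COX7A2 lost with equal medians and without mimic replicates 1 or 2 or control replicates 1, 2 or 3 (limma adjusted p from 0.0604 to 0.0773). The number of complex IV genes called, 8 with all libraries, was 5 without control replicate 1 and 4 without control replicate 2.

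COX5B, the zinc-binding subunit on the matrix side, was the one complex IV gene that fell. It was at 136, 129 and 130.5 FPKM in the mimic libraries and 148, 154 and 165 FPKM in the control libraries (log2FC −0.24, SE 0.0487, limma adjusted p = 0.00924), lower in all 12 alternatives. COX5A, its partner on the matrix side, was at 40.7, 44.3 and 42.4 FPKM in the mimic libraries and 38.7, 40.4 and 42.5 FPKM in the control libraries, with overlapping groups (log2FC 0.067, 95% interval −0.054 to 0.19, limma adjusted p = 0.336). COX6A1, among the most abundant of the 86 mRNAs, was at 379, 358 and 372 FPKM in the mimic libraries and 356, 347 and 354 FPKM in the control libraries (log2FC 0.069, limma adjusted p = 0.188), and COX7C varied within groups, at 174, 134 and 123 FPKM in the mimic libraries and 106, 144 and 115 FPKM in the control libraries (limma adjusted p = 0.282). The isoforms known from other tissues were near the limit of detection. COX6B2, the testis form, was at 0.425, 0.362 and 0.611 FPKM in the mimic libraries and 0.240, 0.138 and 0.309 FPKM in the control libraries, 3.73 inferred fragments in its lowest library, and its call (log2FC 0.25, limma adjusted p = 0.0464) held in 4 of 12 alternatives, since the gene is removed by the filter at 1 FPKM and the call was lost with equal sums, with equal medians, after quantile normalization and without mimic replicates 1 or 3 or control replicates 1 or 2 (limma adjusted p from 0.0544 to 0.129). COX7A1, the muscle form, was at 0.352, 0.479 and 0.567 FPKM in the mimic libraries and 0.411, 0.469 and 0.255 FPKM in the control libraries and was not called (limma adjusted p = 0.419). COX7A2L, a factor in joining complexes III and IV into supercomplexes, was at 16.7, 32.4 and 31.1 FPKM in the mimic libraries and 26.4, 13.2 and 26.0 FPKM in the control libraries. In each group 1 library lay well below the others, mimic replicate 1 and control replicate 2, and the log2FC of 0.29 (95% interval −0.53 to 1.10) turned to −0.028 without control replicate 2.

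**Figure D3:**
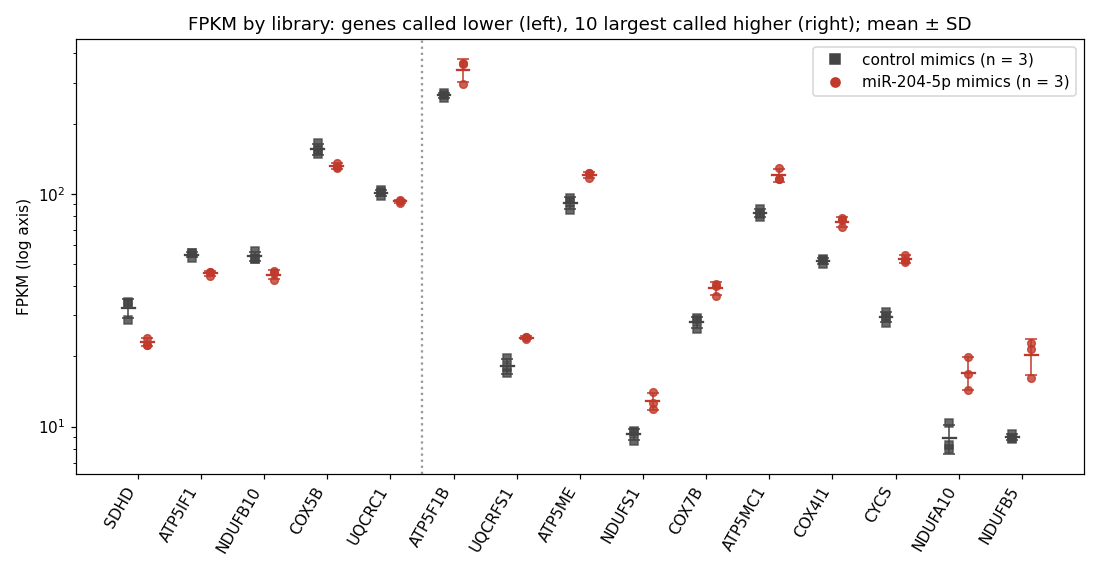
FPKM in each library (log axis) of the 5 genes called lower, left of the dotted line, and of the 10 with the largest increases among those called higher with a mean of at least 1 FPKM, right of it, with mean ± SD over n = 3. ATP5IF1, among those called lower, is an inhibitor of complex V and not a subunit. Mimic libraries are red circles and control libraries grey squares; the groups do not overlap in any of the 15 genes, from SDHD at 22.5 to 24.1 against 28.8 to 34.3 FPKM to NDUFB5 at 16.2 to 22.9 against 8.89 to 9.33 FPKM.

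In complex V, the ATP synthase, 8 of 19 genes were higher and 1 lower, 42.1% and 5.26% against 23.9% and 16.8% of all genes. The gene called lower was the inhibitor ATP5IF1, which is counted here by its name and is not a subunit of the enzyme. In all 47.4% were called, against 40.8% of all genes and 47.8% of those with a mean of at least 1 FPKM. The median log2FC was 0.17. The catalytic F1 head had 2 of 5 genes higher (40%, against 23.9% of all genes). ATP5F1B, the catalytic β subunit and the most abundant complex V mRNA, was at 366, 361 and 296 FPKM in the mimic libraries and 265, 257 and 271 FPKM in the control libraries. Mimic replicate 3 was closer to the control libraries than the other mimic libraries, and the log2FC of 0.36 (SE 0.0848, limma adjusted p = 0.0156) belonged to a call lost without mimic replicate 2 or control replicate 2 (limma adjusted p from 0.0532 to 0.0548). ATP5F1A, the α subunit that alternates with β in the head, was at 28.0, 30.8 and 33.5 FPKM in the mimic libraries and 29.4, 30.6 and 28.2 FPKM in the control libraries, a log2FC of 0.06 (95% interval −0.11 to 0.23, limma adjusted p = 0.529). Whether ATP5F1A and ATP5F1B responded differently was not tested. ATP5F1D, the δ subunit of the central stalk, was at 71.1, 76.5 and 67.0 FPKM in the mimic libraries and 54.9, 65.2 and 60.9 FPKM in the control libraries (log2FC 0.24, limma adjusted p = 0.0421), a call kept in 5 of 12 alternatives and lost with equal sums, with equal medians, after quantile normalization and without mimic replicates 1 or 2 or control replicates 1 or 3 (limma adjusted p from 0.0652 to 0.122). The γ subunit ATP5F1C and the ε subunit ATP5F1E were not called, with 0.048 and 0.086.

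The membrane rotor is built from a single c protein encoded by 3 genes, of which ATP5MC1 passed the test. ATP5MC1 (ENSG00000159199, plus strand, chr17:48892765-48895871) was at 129, 116 and 116 FPKM in the mimic libraries and 79.6, 85.98 and 81.5 FPKM in the control libraries (log2FC 0.54, SE 0.0559, limma adjusted p = 0.000623), higher in all 12 alternatives. ATP5MC2 was at 58.3, 53.0 and 40.6 FPKM in the mimic libraries and 37.4, 51.7 and 53.3 FPKM in the control libraries, and ATP5MC3 at 21.4, 21.0 and 15.9 FPKM in the mimic libraries and 15.9, 16.3 and 21.4 FPKM in the control libraries. Both groups spread widely in these last genes, with a log2FC of 0.093 (95% interval −0.33 to 0.51) for ATP5MC2 and of 0.12 (−0.24 to 0.48) for ATP5MC3. The value of ATP5MC1 lay above the upper end of both intervals, but its own interval (0.41 to 0.68) overlapped each of them. The difference between the 3 genes was not tested.

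In the peripheral stalk, which keeps the head from turning with the rotor, 3 of 4 genes were higher (75%, against 23.9% of all genes). ATP5PD was at 188, 180.2 and 177 FPKM in the mimic libraries and 146, 134 and 151 FPKM in the control libraries (log2FC 0.33, limma adjusted p = 0.00343). ATP5PB was at 46.4, 44.8 and 41.2 FPKM in the mimic libraries and 35.9, 35.7 and 37.7 FPKM in the control libraries (log2FC 0.27, limma adjusted p = 0.00788). ATP5PF was at 29.8, 30.6 and 30.9 FPKM in the mimic libraries and 26.5, 28.0 and 24.8 FPKM in the control libraries (log2FC 0.20, limma adjusted p = 0.0221). ATP5PD and ATP5PB held in all 12 alternatives, and the call of ATP5PF was lost with equal sums and without mimic replicates 2 or 3 or control replicate 1 (limma adjusted p from 0.0573 to 0.0719). ATP5PO, which ties the stalk to the top of the head, was at 81.0, 78.7 and 65.4 FPKM in the mimic libraries and 58.1, 68.1 and 73.4 FPKM in the control libraries and was not called (log2FC 0.17, 95% interval −0.095 to 0.44, limma adjusted p = 0.267). Among the other membrane subunits, which shape the dimer of the enzyme, ATP5ME was at 123, 116 and 122 FPKM in the mimic libraries and 96.0, 92.4 and 85.5 FPKM in the control libraries (log2FC 0.40, SE 0.0513, limma adjusted p = 0.00146) and ATP5MG at 83.1, 76.3 and 77.5 FPKM in the mimic libraries and 64.4, 65.8 and 65.7 FPKM in the control libraries (log2FC 0.27, limma adjusted p = 0.00304). These 2 were higher in all 12 alternatives, and ATP5MD, ATP5MF and ATP5MPL were not called, with log2FC from 0.0032 to 0.14, though ATP5MD was called higher without control replicate 3 (0.18, limma adjusted p = 0.0460).

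ATP5IF1 encodes the inhibitor that binds the F1 head and stops it from hydrolysing ATP when the proton gradient fails. It was at 46.0, 44.3 and 46.1 FPKM in the mimic libraries and 53.1, 55.4 and 55.4 FPKM in the control libraries, lower in every mimic library than in any control library. The log2FC of −0.26 (SE 0.0363, limma adjusted p = 0.00197) was lower in all 12 alternatives. ATP5S, listed under an older symbol and also called factor B, was at 2.51, 3.25 and 2.51 FPKM in the mimic libraries and 1.46, 1.70 and 2.84 FPKM in the control libraries, with overlap and no call (limma adjusted p = 0.169) unless control replicate 3 was left out (0.54, limma adjusted p = 0.0183).

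**Figure D4:**
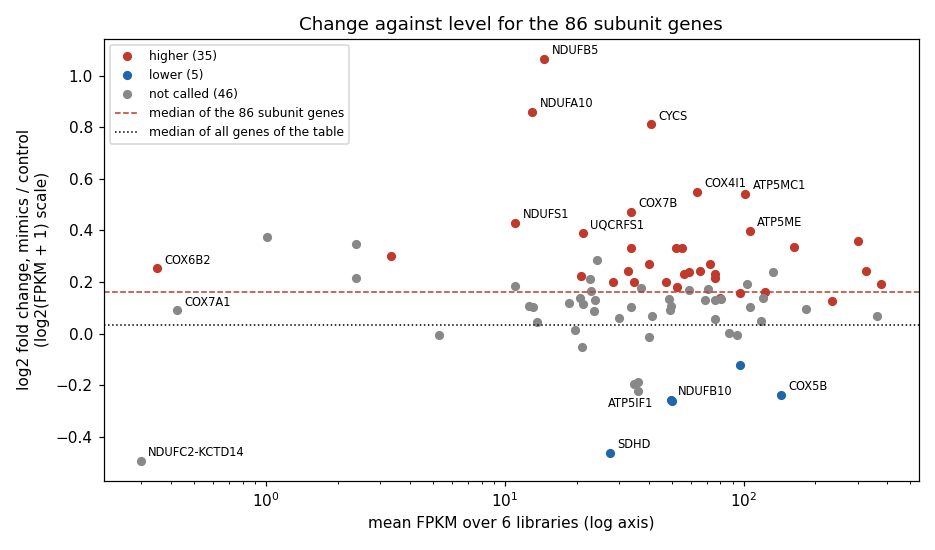
Log2 fold change (vertical axis, log2(FPKM + 1) scale) against the mean FPKM over the 6 libraries (horizontal log axis) for the 86 subunit genes, coloured by call. The dashed line is the median of the subunit genes (0.16) and the dotted line that of all genes (0.032); genes called higher are found from below 1 FPKM to the highest level, and 83 of the 86 genes have a mean of at least 1 FPKM.

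Mean levels ran from 0.298 FPKM for NDUFC2-KCTD14 to 378 FPKM for COX8A, with a median of 44.4 FPKM, and 3 genes were below 1 FPKM, COX6B2, COX7A1 and NDUFC2-KCTD14. The most abundant mRNA of each complex was NDUFS5 at 324, SDHA at 123, CYC1 at 234, COX8A at 378 and ATP5F1B at 303 FPKM, against 41.0 FPKM for CYCS. These levels are taken to be per length of the single transcript listed for each gene, from 365 bases for ATP5ME to 13566 for SDHC. The order between genes would then depend on that choice. Of the 86 listed transcripts, 85 were found in GENCODE 29, 75 of them annotated as protein coding and 10 as targets of nonsense-mediated decay, namely those of NDUFA3, NDUFA7, NDUFA12, NDUFA13, NDUFC1, NDUFS4, NDUFV2, COX6C, ATP5MF and ATP5PO. Of these 10 genes 3 were called higher (30%) and none lower. Of the 75 with a coding transcript 32 were higher (42.7%) and 5 lower (6.67%). Of all genes 23.9% were higher and 16.8% lower, and a difference by kind of transcript was not tested. Replicates were close for most genes, with a median coefficient of variation of 5.63% in the mimic and 4.57% in the control libraries, and it exceeded 25% in a group for 8 genes, NDUFC2-KCTD14, NDUFB9, NDUFA6, NDUFA4L2, COX7A1, COX6B2, COX7A2L and ATP5S.

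By the spans of the listed transcripts, introns included, another gene of the table overlaps 27 of the 86 subunit genes, 11 on the same strand and 19 on the opposite one. Overlap of exons was not examined. On the same strand, NDUFB2 (11.8, 12.497 and 11.2 FPKM in the mimic libraries and 9.16, 11.3 and 10.5 FPKM in the control libraries, not called, limma adjusted p = 0.117) overlaps ADCK2, which was lower (log2FC −0.40, limma adjusted p = 0.00604). NDUFC1 (21.8, 24.0 and 20.6 FPKM in the mimic libraries and 24.1, 18.1 and 19.3 FPKM in the control libraries, not called, limma adjusted p = 0.457) overlaps MGARP, which was higher (log2FC 1.24, limma adjusted p = 0.000316). NDUFC2 (52.9, 52.8 and 47.4 FPKM in the mimic libraries and 45.8, 46.2 and 47.3 FPKM in the control libraries, limma adjusted p = 0.0817) overlaps the readthrough locus, and NDUFA7, NDUFA11, NDUFA13, NDUFB8, COX6A1, UQCR11 and ATP5PO each overlap a same-strand locus that was not called. Of these, NDUFB8 was at 98.2, 81.3 and 73.1 FPKM in the mimic libraries and 68.1, 75.9 and 85.4 FPKM in the control libraries (limma adjusted p = 0.434) beside a locus at 24.5 and 27.7 FPKM on average, while the partners of the others had means below 2 FPKM. NDUFA13, at 36.0, 35.4 and 33.2 FPKM in the mimic libraries and 32.8, 31.7 and 32.8 FPKM in the control libraries (log2FC 0.10, limma adjusted p = 0.104), and UQCR11, at 52.6, 54.0 and 48.1 FPKM in the mimic libraries and 47.5, 46.3 and 49.5 FPKM in the control libraries (limma adjusted p = 0.158), are among these. On the opposite strand, beside TIMM8B, partners called higher were EEF1B2 over NDUFS1 (log2FC 0.48, limma adjusted p = 0.000556), WDR77 over ATP5PB (0.42, limma adjusted p = 0.00411), MYL5 over ATP5ME (0.56, limma adjusted p = 0.00267), SHMT2 over NDUFA4L2 (0.26, limma adjusted p = 0.0108) and TMCO6 over NDUFA2 (0.38, limma adjusted p = 0.00122). Those called lower were TAF5 over ATP5MD (log2FC −1.09, limma adjusted p = 6.74e-05), CPSF4 over ATP5MF (−0.74, limma adjusted p = 0.0238) and IK, also over NDUFA2 (−0.17, limma adjusted p = 0.0280). The subunit genes NDUFA2, NDUFA4L2, ATP5MD and ATP5MF were not called.

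Matches to the miR-204-5p seed were sought in each gene's longest 3'UTR in GENCODE 29, as an 8mer (AAAGGGAA), a 7mer-m8 (AAAGGGA) or a 7mer-A1 (AAGGGAA), each counted under the longest class it fits. Of the 86 subunit genes 12 held a match (14.0%), 5 an 8mer, 4 a 7mer-m8 and 3 a 7mer-A1, where 29.6% of the 14838 genes with a 3'UTR did. The 3'UTRs of the subunit genes were also shorter, with a median of 641 bases against 1510 for all genes. The 8mer genes were SDHD, UQCRFS1, COX5A, SDHC and ATP5S, the 7mer-m8 genes NDUFB5, NDUFA5, ATP5F1E and ATP5MC3, and the 7mer-A1 genes NDUFA9, NDUFV3 and UQCR11. Of these 12, SDHD was called lower, and UQCRFS1, NDUFB5 and NDUFA5 higher. Their median log2FC was 0.11, against 0.17 for subunit genes without a match, and −0.025 and 0.060 for all genes with and without a match. In the 3'UTR of the transcript the table lists, 10 of 82 genes held a match, COX7C with an 8mer there, while NDUFB5, NDUFV3 and ATP5S had none.

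The 8mer stood in the 3'UTR of a gene that was lower (−0.46 for SDHD), of genes that were not called (0.11 for SDHC, 0.067 for COX5A, 0.35 for ATP5S) and of one that was higher (0.39 for UQCRFS1). A match is a description of the sequence and does not show that the miRNA binds there. SDHC held 3 matches, UQCRFS1 2, and SDHD, COX5A and ATP5S 1 each, and the effect of the matches was not tested.

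RefSeq promoter windows (GRCh38.p14, positions −250 to 50 around the start) were at hand for 68 of the 86 genes, too few for a share over the subunit genes, so single windows are shown. They were searched on both strands for GCGCATGC (nuclear respiratory factor 1, NRF1) and CCGGAAG (the ETS family, with GABP), known from promoters of respiratory chain genes, and for AAGATGG (YY1). The letters occur in 3.27%, 10.7% and 6.06% of all 27305 promoters, and in 5.00%, 17.6% and 6.96% of the 11774 promoters of genes in the table. The NRF1 letters can overlap with their own reverse complement. The genes shown are CYCS, COX4I1 and SDHD, with the largest significant changes each way among those with both a window and a match, at chr7:25125402-25125449 on the minus strand, chr16:85799677-85799723 on the plus strand and chr11:112086743-112086790 on the plus strand.
CYCS: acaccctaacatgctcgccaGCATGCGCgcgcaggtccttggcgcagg
COX4I1: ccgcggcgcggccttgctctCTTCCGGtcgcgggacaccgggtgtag
SDHD: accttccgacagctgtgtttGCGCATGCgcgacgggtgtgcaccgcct
The ETS letters are also present in the window of SDHD. These genes were shown because they hold a match, so no link between the letters and the direction of change can be read from them.

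Other genes of the pathway were counted from lists of the same kind. Of 53 assembly factors, which build the complexes without being part of them, 24 were higher and 6 lower, 45.3% and 11.3% against 23.9% and 16.8% of all genes, with a median log2FC of 0.21 against 0.032. LYRM7, which delivers the Rieske protein to complex III, was at 5.65, 5.47 and 5.10 FPKM in the mimic libraries and 3.07, 2.39 and 2.98 FPKM in the control libraries (log2FC 0.75, limma adjusted p = 0.00102), and COX18, which inserts a complex IV core subunit, was at 6.73, 6.95 and 6.64 FPKM in the mimic libraries and 3.49, 3.42 and 4.07 FPKM in the control libraries (log2FC 0.74, limma adjusted p = 0.000480). SDHAF1, needed for the iron-sulfur clusters of SDHB, fell, at 10.1, 10.7 and 11.7 FPKM in the mimic libraries and 13.8, 14.7 and 16.9 FPKM in the control libraries (log2FC −0.45, limma adjusted p = 0.00694), and so did UQCC2, a complex III assembly factor, at 15.4, 15.7 and 14.4 FPKM in the mimic libraries and 20.3, 19.3 and 21.6 FPKM in the control libraries (log2FC −0.41, limma adjusted p = 0.00192). All 4 held in the 12 alternatives.

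Of 18 enzymes of the tricarboxylic acid cycle and the pyruvate dehydrogenase complex outside complex II, 8 were higher and 4 lower, 44.4% and 22.2% against 23.9% and 16.8% of all genes, with a median log2FC of 0.14. MDH2, mitochondrial malate dehydrogenase, was at 72.9, 66.6 and 67.6 FPKM in the mimic libraries and 45.7, 43.2 and 45.4 FPKM in the control libraries (log2FC 0.61, limma adjusted p = 0.000215). DLST, the core of the 2-oxoglutarate dehydrogenase complex, was at 50.02, 46.2 and 38.2 FPKM in the mimic libraries and 17.1, 30.2 and 31.1 FPKM in the control libraries (log2FC 0.79, limma adjusted p = 0.0325), with control replicate 1 below the other control libraries and the call kept in 9 of 12 alternatives. The pyruvate dehydrogenase genes PDHX, at 6.95, 6.82 and 6.82 FPKM in the mimic libraries and 15.1, 14.4 and 14.1 FPKM in the control libraries (log2FC −0.98, limma adjusted p = 5.85e-05), and DLAT, at 7.44, 9.87 and 9.82 FPKM in the mimic libraries and 15.1, 14.8 and 13.8 FPKM in the control libraries (log2FC −0.64, limma adjusted p = 0.00400), fell.

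Of 17 regulators of mitochondrial biogenesis 16 were in the table, 7 higher and 3 lower, 43.8% and 18.8% against 23.9% and 16.8% of all genes, with a median log2FC of 0.16. TFB1M, which methylates mitochondrial ribosomal RNA, was at 17.1, 12.96 and 13.6 FPKM in the mimic libraries and 6.56, 7.19 and 8.14 FPKM in the control libraries (log2FC 0.90, limma adjusted p = 0.00151), and SLIRP, which stabilises mitochondrial mRNA, at 19.3, 17.9 and 16.5 FPKM in the mimic libraries and 12.7, 9.64 and 12.7 FPKM in the control libraries (log2FC 0.58, limma adjusted p = 0.00728). POLG, the mitochondrial DNA polymerase, was at 13.3, 14.7 and 14.4 FPKM in the mimic libraries and 17.4, 17.7 and 16.5 FPKM in the control libraries (log2FC −0.27, limma adjusted p = 0.00845), and the transcription factor NRF1 at 3.29, 3.38 and 3.52 FPKM in the mimic libraries and 4.12, 3.90 and 4.37 FPKM in the control libraries (log2FC −0.22, limma adjusted p = 0.0287), a call kept in 7 of 12 alternatives. Without control replicate 3, 6 of these regulators passed the test. NDUFAB1, the acyl carrier protein that is a complex I subunit but has a name outside the rule, was higher, at 52.6, 51.0 and 44.5 FPKM in the mimic libraries and 38.9, 35.9 and 37.5 FPKM in the control libraries (log2FC 0.39, limma adjusted p = 0.00536). The 13 subunits encoded in mitochondrial DNA were not analysed here, since none was found in the table by name.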

How the data were processed

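Total RNA of 3 miR-204-5p mimic and 3 control mimic libraries of UM-SCC1 cells was sequenced (TruSeq kit, HiSeq X, per the study's methods). The submitters' processing notes name HISAT2, StringTie and hg38, without versions or roles. The authors deposited FPKM values for 14959 genes, each listed with 1 transcript and its length. Use of strand is not given in the sources used here. The authors' own fold changes and p-values from edgeR stand in the same table and were not used. The limma test described next called 6098 genes, 3578 higher and 2520 lower, which is more than the differentially expressed genes that the study reported. The cause of this difference was not tested.

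Since FPKM is no count, log2(FPKM + 1) of all 14959 genes was fitted with limma 3.58.1 (lmFit, eBayes with trend, two-sided) in R 4.3.3, adjusted by Benjamini-Hochberg over all genes at 0.05, with no filter. The script was tested on simulated data. The remaining steps ran in Python 3.11.15 with scipy 1.17.1, pandas 2.3.3 and numpy 2.4.6.

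Depth was inferred from the smallest step of FPKM times length over 1175 genes with 1 annotated transcript (1 fragment on 1 kb was 0.0610 to 0.0765 FPKM). Only 26.4% to 29.1% of low values were whole multiples within 0.02 of a step, so counts were not recovered and a count test was not run.

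Members, lists and the rule for named genes (the 10 largest called changes each way with a mean of at least 1 FPKM, the most abundant gene of each complex, core subunits, paralogues, same-strand overlaps and the 2 largest changes each way of the other lists) were chosen with earlier results of these data known. The subdivision into modules, and the choice of other genes named with values, came after the values were known. For 3'UTRs GENCODE 29 was used, and for promoters and the miRNA RefSeq. Genes without a promoter window at hand included ATP5F1B, ATP5F1D, ATP5MC3, ATP5MF, ATP5S, COX6C, COX7A1, CYC1, NDUFA4, NDUFA4L2, NDUFB5, NDUFB9, NDUFC2, NDUFS5, SDHC, UQCRB and UQCRHL. The values of 1 subunit gene, which stays in the counts and sums, are not reported here.

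The alternatives were a pseudocount of 0.1, a mean of at least 1 FPKM, the replicate number as a block, equal sums, equal medians, quantile normalization and each of the 6 libraries left out.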

Additional observations from a re-analysis of the deposited data

How the results depend on the processing

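Under each of the 12 alternatives more subunit genes were called higher than lower by limma, 78.8% to 89.2% of their calls, and so were more of all genes, 50.1% to 59.5% of theirs. The numbers were 35 and 5 with all libraries as deposited, 35 and 5 with a pseudocount of 0.1, 35 and 6 among genes with a mean of at least 1 FPKM, and 28 and 7, 26 and 7, and 29 and 7 with equal sums, equal medians and quantile normalization. With 1 library left out, 24 to 33 were higher and 4 to 6 lower, where 19.2% to 21.0% of all genes were higher and 13.7% to 15.2% lower. For complex III the number of genes called was 6, and 3 to 5 with 1 library left out. For complex IV it was 8, and 5 with equal medians and 4 to 7 with 1 library left out. For the regulators of mitochondrial biogenesis it was 10, and 6 to 8 with 1 library left out. The cause of these moves was not tested, although leaving out a library also leaves fewer samples to estimate the spread.

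The labels do not say whether libraries with the same replicate number were made together, and no pairing by number was visible across genes. With 3 libraries per group, the following correlations cannot settle whether the numbers mark pairs. Deviations from the group means of libraries with the same number had correlations of −0.040, −0.021 and −0.11 across genes, and none of the 6 libraries correlated best with the one of its own number. With the replicate block 26 subunit genes were called higher and 4 lower, 30 in all, against 40 without it, and 3 of complex III instead of 6, while 34.1% in place of 40.8% of all genes were called. The calls lost were those of NDUFA1, NDUFA4, NDUFA5, SDHA, UQCRC1, CYC1, UQCRQ, COX7A2, COX6C and ATP5PF (limma adjusted p from 0.0507 to 0.0939).

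Some fold changes that were not called turned sign. With 1 library left out, ATP5F1A ran from −0.00068 (without mimics replicate 3) to 0.12, ATP5MC2 from −0.067 (without control replicate 1) through −0.015 (without mimics replicate 1) to 0.24 and COX7A2L from −0.028 (without control replicate 2) to 0.58. NDUFC2-KCTD14, at −0.49 with all libraries, ran from −0.74 to 0, the latter without control replicate 3, where alone it has a value above 0. COX6A1 gave −0.014 after quantile normalization. With the 3'UTR of the listed transcript, 10 in place of 12 subunit genes held a seed match. FPKM hides the fragments behind a value, inferred as 3.73 or fewer in the lowest library for COX6B2, COX7A1 and NDUFC2-KCTD14, so the values of these genes, the call of COX6B2 included, rest on few fragments.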
